A study of Homo sapiens with 8 samples.

Results

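Translation factors and closely related genes whose mRNAs carry a terminal oligopyrimidine (TOP) motif, other than ribosomal protein genes, were examined in MCF10A cells cultured in 3D hydrogels. They were chosen by name as known TOP mRNAs and comprise 10 of the 25369 gene symbols in the table, namely EEF1A1, EEF1B2, EEF1D, EEF1G, EEF2, EIF3E, EIF3F, EIF4B, TPT1 and PABPC1. All 10 were among the 13369 genes with enough reads to be tested. MCF10A is a spontaneously immortalized, nontransformed human mammary epithelial line, used here within a stated range of low passages and encapsulated for 7 days. Soft IPNs and stiff IPNs are interpenetrating networks of alginate with reconstituted basement membrane (rBM), in which calcium crosslinks the alginate of the stiff gels. Soft col:rBM gels hold collagen-1 with rBM, and stiff col gels hold collagen-1 without rBM, so that stiffness and composition change together between the 2 collagen gels. Each gel had 2 RNA-seq libraries, taken by replicate number as 1 from each of 2 independent trials.

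A TOP mRNA begins with a cytosine at the cap followed by an uninterrupted run of pyrimidines. Nearly all ribosomal proteins and many elongation and initiation factors are encoded by such mRNAs, so that cells can adjust the output of the translation machinery as a set. Control is best known at the level of translation, where mTORC1 signalling and the RNA-binding protein LARP1 govern the loading of TOP mRNAs onto ribosomes, while RNA-seq as used here measures mRNA abundance alone.

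The sequences around the transcription start are shown first, as the motif there is what defines a TOP mRNA. RefSeq starts on GRCh38.p14 were given for 7 of the 10 genes, EEF1B2 having 2 starts. Each window holds 10 bases before the start and 20 from it, written 5′ to 3′ on the strand of the gene. Capitals mark the pyrimidine run of a TOP motif, defined as C at the start followed by at least 4 bases that are C or T, searched on the strand of the gene only.
EEF1A1 (chr6:73521013-73521042, minus strand): cgtgaacgttCTTTTTCgcaacgggtttgc
EEF2 (chr19:3985444-3985473, minus strand): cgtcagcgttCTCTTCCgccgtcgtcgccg
TPT1 (chr13:45341164-45341193, minus strand): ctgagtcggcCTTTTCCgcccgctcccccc
EIF3F (chr11:7987327-7987356, plus strand): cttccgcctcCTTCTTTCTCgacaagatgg
EIF4B (chr12:53006446-53006475, plus strand): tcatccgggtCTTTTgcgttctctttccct
EEF1B2, start 2 (chr2:206159885-206159914, plus strand): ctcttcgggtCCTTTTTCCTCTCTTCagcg
EEF1B2, start 1 (chr2:206159599-206159628, plus strand): aagtggccccagcctcgaggccgggcgtct
EEF1G (chr11:62573872-62573901, minus strand): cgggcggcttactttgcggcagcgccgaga

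The motif lay exactly at an annotated start in 6 of the 7 genes, with a run of 5 bases in EIF4B, 7 in EEF1A1, EEF2 and TPT1, 10 in EIF3F and 16 at start 2 of EEF1B2. Of all 35116 RefSeq starts, 4.07% carried it at the same place, as did 60.3% of the 78 starts of 63 ribosomal protein genes. The remaining gene, EEF1G, and start 1 of EEF1B2 did not hold these letters within 5 bases of the annotated start. EEF1D, EIF3E and PABPC1 are named only.

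Values are normalized counts, the authors' read counts divided by 1 factor per library. Reads on genes, estimated from the deposited values, numbered between 13065615 and 18583116 per library, fewer than the depth given in the methods of the paper, and whether a read pair was counted as 1 was not tested. On this estimate, 3 reads corresponded to 2.41 to 3.72 normalized counts. All 8 mammary epithelial markers examined (KRT5, KRT14, KRT17, TP63, CDH1, EGFR, ITGB4 and LAMB3) had at least 10 normalized counts in every library. Among 5 fibroblast markers only COL1A1 exceeded 10 throughout, at 168 to 333, while COL1A2 was at 0 in each library. The second stiff IPN library stood apart at the lower end of the first principal component, which held 47.4% of the variance. It lay at -62.1, with the second stiff col library next at -26.7. The component also separated the trials, as the trial 2 library was below that of trial 1 in each gel. Trial 1 lay at 36.1 in soft IPN, -12.3 in stiff IPN, 50.4 in soft col:rBM and 49.4 in stiff col. Results that rest on the second stiff IPN library are therefore given with and without it. An exact two-sided permutation test has a smallest p of 0.333 with 2 libraries against 2, so tests rest on limma fitted across all genes.

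The 10 genes were among the most abundant mRNAs of the cells. By mean normalized count EEF1A1 had rank 1 of all genes, TPT1 rank 4 and EEF2 rank 10, and the lowest of the 10, EIF3F, had rank 464. Per kilobase of the canonical transcript the mean level was highest for EEF1A1, at 148000 normalized counts per kb, followed by EEF1G at 31300, TPT1 at 25700, EEF2 at 24600 and EEF1B2 at 22400. This order depends on the length of that transcript, which was 4548 bp for TPT1 and 6920 bp for EIF3F. Which transcripts the cells used was not tested. PABPC1 had 14800 normalized counts per kb, EIF3E 11000, EIF4B 5470, EEF1D 4890 and EIF3F 687. Their combined share of all normalized counts was 6.16% and 6.10% with soft IPNs, 4.91% and 3.42% with stiff IPNs, 5.90% and 5.10% with soft col:rBM and 5.76% and 4.87% with stiff col. A 95% Wilson interval on each share spanned at most 0.024 percentage points and covers counting error only, because reads carried no molecular identifiers and need not stem from separate molecules.

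**Figure D1:**
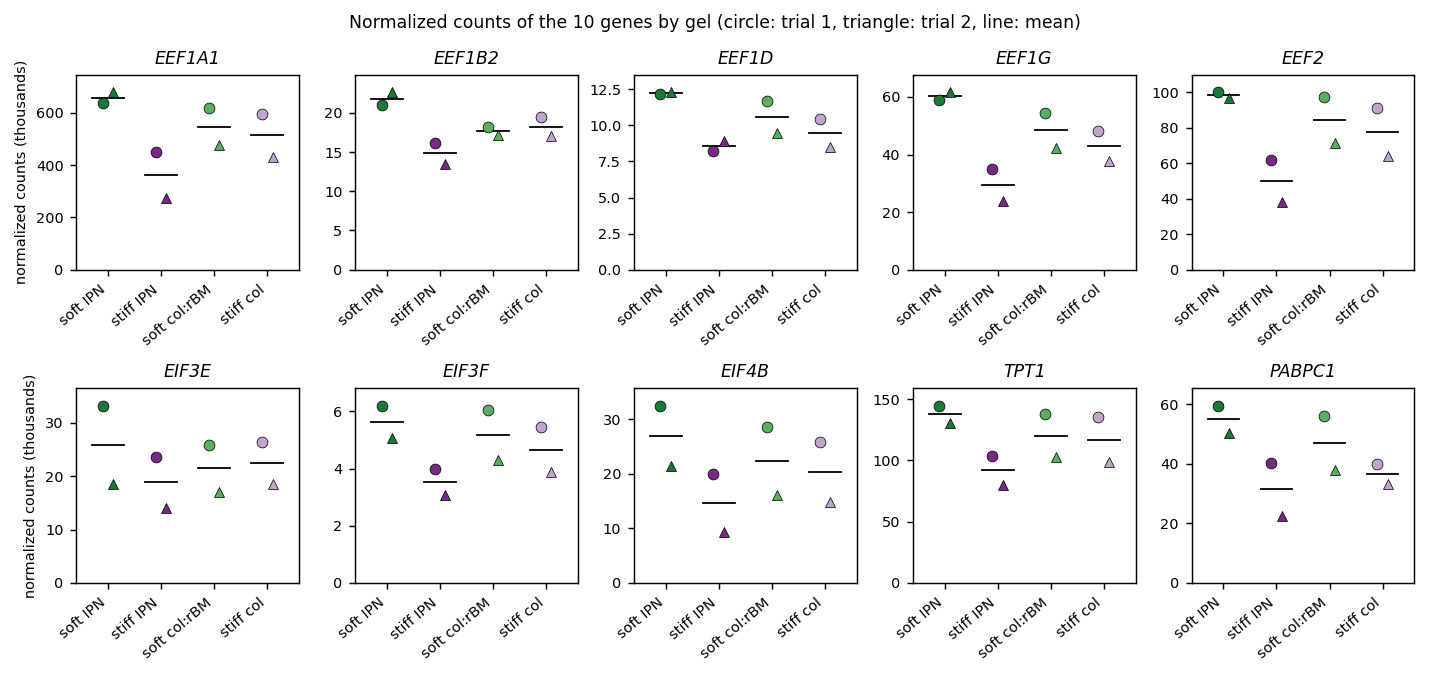
Normalized counts (y axes, linear from 0) of each of the 10 genes in the 4 gels, with a circle for trial 1, a triangle for trial 2 and a line at the mean of the 2 libraries. In 9 of the 10 genes the lowest point is stiff IPN in trial 2, and in all 10 the highest point is a soft IPN library.

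The order of the gel means was nearly the same in each gene. In 8 genes the mean was highest in soft IPN and lowest in stiff IPN, with soft col:rBM above stiff col between them. In EEF1B2 and EIF3E the 2 collagen gels changed places. The lowest library was the second stiff IPN library in 9 genes and the first stiff IPN library in EEF1D, whereas the highest was the first soft IPN library in 6 genes and the second in 4. Neighbours in this order were mostly within their spread. Soft IPN and soft col:rBM libraries overlapped in 6 genes, stiff col and soft col:rBM in 10, and stiff col and stiff IPN in 7.

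The stiff IPN was compared with the soft IPN to find how stiffness relates to the abundance of these mRNAs at constant rBM and alginate, with calcium changing along with stiffness. All 10 were lower in stiff IPNs, with a median log2 fold change of -0.77 against -0.01 for all genes tested, and folds that ranged from 1.36-fold lower for EIF3E to 2.08-fold lower for EEF1G. By limma with 1 mean per gel, no gene of the 10 reached an adjusted p under 0.05 (0 of 13369 genes did, 0.0%), and 7 had an unadjusted p under 0.05, which 4.51% of all genes had in the same direction. With the trial as a block, 5 of the 10 passed, EEF1G, EIF4B, EEF2, EIF3F and PABPC1, beside 2.13% of all genes in that direction. In 9 of the 10 genes both stiff IPN libraries were below both soft IPN libraries, as they were in 21.4% of all genes. As libraries are scaled, less mRNA of these genes per cell cannot be told apart from fewer cells that express them or from more of other mRNAs.

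The 2 largest differences were those of the elongation factors EEF1G and EEF2. EEF1A1 encodes eEF1A, which delivers aminoacyl-tRNA to the ribosome, and lies on chromosome 6 at 74225473 to 74230755 of hg19, on the minus strand. It stood at 637846 and 678177 normalized counts with soft IPNs, 449966 and 275075 with stiff IPNs, 617841 and 476779 with soft col:rBM and 596014 and 431357 with stiff col. Both stiff IPN libraries were below both soft IPN libraries, and the first lay between the 2 stiff col libraries. The level was 1.87-fold lower in stiff than in soft IPNs (log2 fold change -0.90 ± 0.37 SE), with an adjusted p of 0.519 and of 0.0558 with the trial as a block (0.0341 to 0.999 over the alternatives). Multimapped reads had been removed, and hg19 annotates 49 pseudogenes of EEF1A1, so reads that match such copies equally well are missing from these values.

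EEF1B2, EEF1D and EEF1G encode the beta, delta and gamma subunits of eEF1B, the exchange complex that recharges eEF1A with GTP. EEF1G (chromosome 11, 62327068 to 62341363 of hg19, minus strand) stood at 58915 and 61641 normalized counts with soft IPNs, 34868 and 23995 with stiff IPNs, 54389 and 42388 with soft col:rBM and 48288 and 37831 with stiff col. The 2 stiff IPN libraries were the lowest of all 8. The difference between the IPNs was the largest among the 10 genes, at 2.08-fold (log2 fold change -1.06 ± 0.29 SE, adjusted p = 0.491), and it passed with the trial as a block (adjusted p = 0.0317, 0.0101 to 0.999 over the alternatives). EEF1B2 (chromosome 2, 207024619 to 207027652, plus strand) stood at 20953 and 22628 normalized counts with soft IPNs, 16113 and 13536 with stiff IPNs, 18146 and 17202 with soft col:rBM and 19445 and 16987 with stiff col. Its stiff IPN libraries again lay below all others, by 1.47-fold on average against soft IPNs, and did not pass in either fit (adjusted p = 0.514, 0.0803 with the block, and 0.0392 to 0.999 over the alternatives). EEF1D, on chromosome 8, stood at 12155 and 12298 normalized counts with soft IPNs, 8232 and 8908 with stiff IPNs, 11693 and 9504 with soft col:rBM and 10457 and 8522 with stiff col. It was the only gene of the 10 in which the second stiff IPN library was above the first, and its difference of 1.43-fold did not pass (adjusted p = 0.527, 0.11 with the block, and 0.0546 to 0.999 over the alternatives).

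The 3 subunits did not keep 1 proportion to each other. The log2 ratio of EEF1G to EEF1B2, in normalized counts, was 1.49 and 1.45 in soft IPNs, 1.11 and 0.83 in stiff IPNs, 1.58 and 1.30 in soft col:rBM gels, and 1.31 and 1.16 in stiff col gels. The stiff IPN libraries were the 2 lowest. The ratio of EEF1D to EEF1B2 ranged from -0.995 to -0.604 and had the second stiff IPN library at its upper end and a stiff col library at its lower end. These ratios were not tested.

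EEF2 encodes the translocase that moves the ribosome along the mRNA, and lies on chromosome 19 at 3976054 to 3985461, minus strand. It stood at 99927 and 96868 normalized counts with soft IPNs, 61803 and 38196 with stiff IPNs, 97459 and 71582 with soft col:rBM and 90945 and 64009 with stiff col. Both stiff IPN libraries were below the other 6. It was 2.02-fold lower in stiff than in soft IPNs (log2 fold change -1.02 ± 0.34 SE, adjusted p = 0.499) and passed with the trial as a block (adjusted p = 0.0354, 0.0128 to 0.999 over the alternatives). EEF2 and EEF1A1 kept nearly the same proportion throughout, with a log2 ratio in normalized counts between -2.86 and -2.66 in the 8 libraries.

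Of the 3 initiation factors, EIF4B and EIF3E had the largest differences between trials among the 10 genes. EIF4B encodes a cofactor of the RNA helicase eIF4A (chromosome 12, 53400240 to 53435999, plus strand). It stood at 32496 and 21517 normalized counts with soft IPNs, 20045 and 9369 with stiff IPNs, 28597 and 16178 with soft col:rBM and 25837 and 14837 with stiff col. The second library was the lower in each gel, and the soft IPN library of trial 2 was barely above the stiff IPN library of trial 1. EIF4B was 1.93-fold lower in stiff than in soft IPNs (log2 fold change -0.95 ± 0.48 SE, adjusted p = 0.567). With the trial as a block the SE dropped to 0.16 and the adjusted p was 0.0323 (0.00658 to 0.999 over the alternatives).

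EIF3E and EIF3F encode subunits of eIF3, the large scaffold that joins the small ribosomal subunit to the mRNA. EIF3F (chromosome 11, 8008884 to 8023399, plus strand) stood at 6204 and 5072 normalized counts with soft IPNs, 3982 and 3085 with stiff IPNs, 6053 and 4317 with soft col:rBM and 5444 and 3889 with stiff col. Both stiff IPN libraries were below both soft IPN libraries, and the stiff IPN library was the lowest of each trial. It was 1.6-fold lower in stiff than in soft IPNs, by nearly the same amount in trial 1 (log2 fold change -0.64) and trial 2 (-0.72), and passed only with the block (adjusted p = 0.519 without and 0.0409 with it, 0.0213 to 0.999 over the alternatives). EIF3E, on chromosome 8, stood at 33256 and 18469 normalized counts with soft IPNs, 23605 and 14127 with stiff IPNs, 25889 and 17046 with soft col:rBM and 26373 and 18479 with stiff col. It was the gene with overlap between the IPNs, since the stiff IPN library of trial 1 was above the soft IPN library of trial 2. Within each trial the stiff IPN was the lower, by 0.50 and 0.39 on the log2 scale, and the mean difference of 1.36-fold did not pass (adjusted p = 0.741, 0.131 with the block, and 0.0306 to 0.999 over the alternatives).

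TPT1 encodes translationally controlled tumour protein, a growth-related protein whose mRNA is a classical TOP mRNA (chromosome 13, 45907606 to 45915318, minus strand). It stood at 144710 and 130283 normalized counts with soft IPNs, 103865 and 80182 with stiff IPNs, 137961 and 102385 with soft col:rBM and 135468 and 98564 with stiff col. The first stiff IPN library was above the second library of each collagen gel, whereas the second was below all others. TPT1 was 1.5-fold lower in stiff than in soft IPNs and did not pass (adjusted p = 0.569, 0.0772 with the block, and 0.0545 to 0.999 over the alternatives). PABPC1, on chromosome 8, encodes the main cytoplasmic poly(A) binding protein, which bridges the tail of an mRNA to the initiation complex. It stood at 59530 and 50259 normalized counts with soft IPNs, 40222 and 22616 with stiff IPNs, 56107 and 38064 with soft col:rBM and 39801 and 33064 with stiff col. Its first stiff IPN library lay just above both stiff col libraries. PABPC1 was 1.81-fold lower in stiff than in soft IPNs (adjusted p = 0.519) and passed with the block (adjusted p = 0.0474, 0.011 to 0.999 over the alternatives).

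**Figure D2:**
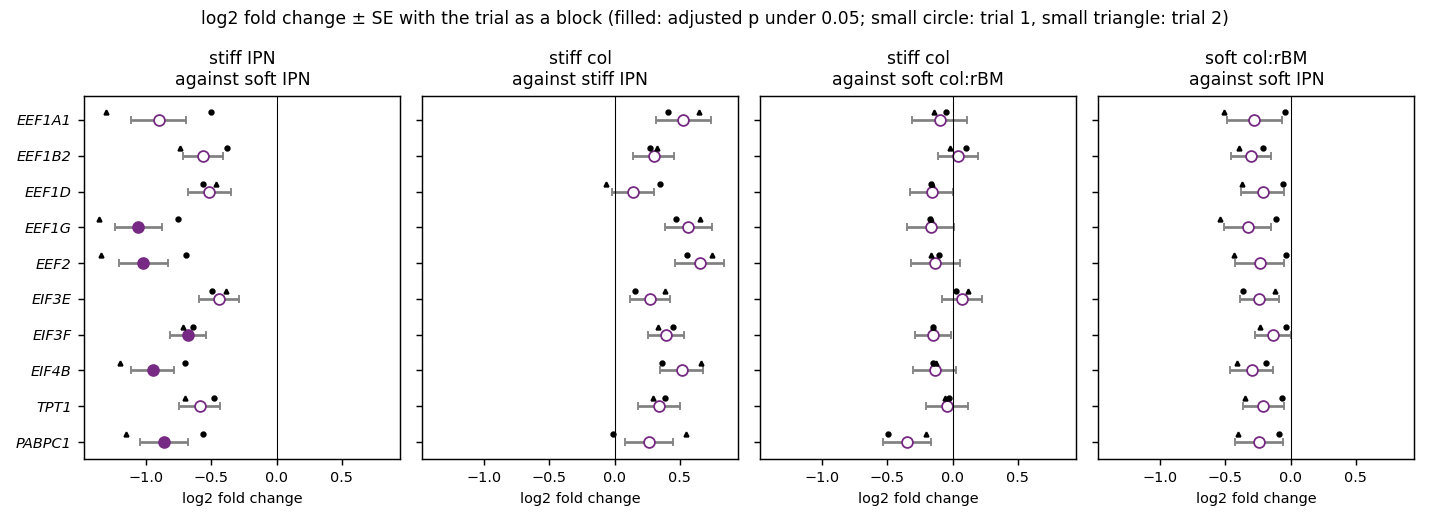
log2 fold change (x axes) of each of the 10 genes in the 4 comparisons between gels, as the limma estimate ± SE with the trial as a block, filled where the adjusted p was under 0.05, and with the difference within trial 1 (small circle) and trial 2 (small triangle). Only the panel of stiff against soft IPN has filled points, 5 in number, and all its points lie below 0.

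Both trials gave the same direction between the IPNs. The median log2 fold change of the 10 genes was -0.56 in trial 1 and -0.95 in trial 2, with all 10 genes lower in each. Trial 2 contains the library that stood apart, and without that library the median was -0.47 with no block and -0.67 with it, the latter with 3 genes passing beside 4.54% of all genes called lower. With the block, no gene of the 10 passed once the second soft IPN library was left out, when 0 of all genes passed, and 7 passed without the first stiff IPN library, when 11.4% of all genes were called lower. Leaving out any other library gave 4 genes (first soft IPN library), 3 (either soft col:rBM library) or 2 (either stiff col library), beside 0.955% to 1.18% of all genes. The direction was lower for all 10 genes in each of the 30 alternatives. When libraries were rescaled to equal totals, the median of all genes tested moved to 0.26, that of the 10 genes was -0.50, and 4 of the 10 passed with the block, beside 1.26% of all genes. CD68, a macrophage marker, moved alongside, at 4222 and 2092 normalized counts with soft and 1220 and 324 with stiff IPNs. The summed level of 4 leukocyte and endothelial markers was 2124 to 4241 in soft IPNs and 341 to 1237 in stiff IPNs, almost wholly CD68, while the pan-leukocyte marker PTPRC was at 0 in each library. The part of CD68-expressing cells in the result was not tested.

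Stiff col gels were next compared with stiff IPNs, where collagen-1, rBM, alginate and calcium all change at comparable stiffness. All 10 genes were higher in stiff col gels, with a median log2 fold change of 0.37 against 0.00 for all genes tested. Without the block this median was 0.17 without the second stiff IPN library and 0.66 without the first, and 0.14 and 0.60 without the first and second stiff col library. With the block it lay between 0.31 and 0.45 without 1 library. EEF2 had the largest difference (log2 fold change 0.65 ± 0.34 SE), followed by EEF1G (0.56 ± 0.29), EEF1A1 (0.53 ± 0.37) and EIF4B (0.51 ± 0.48), and EEF1D the smallest (0.14 ± 0.21). By limma none of the 10 passed, without or with the block (adjusted p 0.799 to 0.933 and 0.119 to 0.687), where 0.0% and 1.0% of all genes were called higher. At an unadjusted p under 0.05 there were 0 without the block and 5 with it, beside 2.58% and 9.79% of all genes in that direction. Libraries did not overlap in EEF1B2, EEF1G and EEF2, 3 of 10 against 15.1% of all genes. The direction of EIF3E, EIF4B and PABPC1 reversed without the second stiff IPN library, to -0.10, -0.03 and -0.15. This comparison shares the stiff IPN libraries with the one above, so that a low stiff IPN value enters both.

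Within the collagen gels the stiff gel differed little from the soft one. The median log2 fold change of stiff col against soft col:rBM was -0.13 (all genes 0.00), with 8 genes lower and EEF1B2 and EIF3E higher by 0.04 and 0.07. The median turned to 0.09 without the first soft col:rBM library and to 0.13 without the second stiff col library, and it was -0.33 and -0.34 without the other library of each gel. PABPC1 had the largest difference (-0.35 ± 0.35 SE). None passed by limma in either fit, where 0.0% of all genes were called. At an unadjusted p under 0.05 there were 0 of the 10 in either fit, beside 1.05% of all genes without the block and 3.72% with it. Libraries of the 2 gels overlapped in each of the 10 genes, whereas 9.5% of all genes were lower and 9.51% higher without overlap. Directions here turned with a single library left out, as listed under the processing alternatives.

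Soft col:rBM gels were compared with soft IPNs, which both contain rBM and are both soft. The soft IPN libraries are those of the first comparison, so that a high soft IPN value enters both. All 10 genes were lower in soft col:rBM gels, with a median log2 fold change of -0.24 (all genes 0.00), between -0.33 ± 0.29 SE for EEF1G and -0.13 ± 0.27 for EIF3F. None of the 10 passed by limma in either fit, where 0.0% and 0.00748% of all genes were called lower. At an unadjusted p under 0.05 there were 0 of the 10 in either fit, beside 0.89% of all genes without the block and 2.89% with it. Libraries did not overlap in EEF1A1, EEF1B2, EEF1D and EEF1G, the eEF1 subunits, which is 4 of 10 against 10.4% of all genes in that direction. The difference came mainly from trial 2, with a median of -0.40 against -0.08 in trial 1. Without the block the median was -0.003 without the second soft col:rBM library and -0.46 without the first, and with the block it was -0.09 without the second soft IPN library and -0.42 without the first.

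The effect of stiffness in collagen gels, where composition changes too, minus that in IPNs was tested directly. This contrast holds the same IPN libraries as the first comparison, so that a low stiff IPN value enters both. The difference was positive for all 10 genes, with a median of 0.58 on the log2 scale (all genes 0.01) and a range from 0.35 for EEF1D to 0.89 for EEF1G. No gene of the 10 passed by limma without the block (adjusted p 1.0) or with it (0.346 to 0.668), and 0.0% of all genes were called higher in either fit. At an unadjusted p under 0.05 there were 0 without the block and 8 with it, beside 0.748% and 5.38% of all genes in that direction. In trial 1 the median was 0.48 and in trial 2 it was 0.84, and without the second stiff IPN library it was 0.39, or 0.54 with the block. Without any 1 library and with no block it lay between 0.37 (second soft col:rBM library) and 0.90 (first stiff IPN library).

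The trials themselves differed. All 10 genes were lower in trial 2 than in trial 1, with a median log2 fold change of -0.39 (all genes -0.01), and 6 passed by limma, beside 14.4% of all genes called lower. All 3 initiation factors were among them, with EIF4B at -0.83 ± 0.12 SE (adjusted p = 0.00432), EIF3E at -0.68 ± 0.11 (adjusted p = 0.00582) and EIF3F at -0.41 ± 0.10 (adjusted p = 0.0199). PABPC1 (-0.48 ± 0.13, adjusted p = 0.0318), EEF2 (-0.42 ± 0.13, adjusted p = 0.0473) and TPT1 (-0.35 ± 0.11, adjusted p = 0.04997) passed by a smaller margin. EEF1A1, EEF1G, EEF1B2 and EEF1D did not pass, at -0.37, -0.30, -0.10 and -0.12. Without 1 of the soft IPN libraries 8 genes passed, when 7.0% and 7.31% of all genes were called lower. Without 1 of the stiff IPN libraries 3 passed, when 22.6% and 22.7% of all genes were, and without 1 of the collagen gel libraries 2 passed, beside 5.28% to 5.54%. The trials are confounded with whatever else differed between the 2 experiments.

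The difference between trials was not equal across gels. In soft IPNs the median was -0.10, with 6 genes lower and 4, EEF1A1, EEF1B2, EEF1D and EEF1G, higher in trial 2. In stiff IPNs the median was -0.62 with 9 genes lower, in soft col:rBM gels -0.44 and in stiff col gels -0.46 with all 10 lower in both. EEF1A1, for example, was 0.09 higher in trial 2 in soft IPNs and 0.71, 0.37 and 0.47 lower in the other gels, on the log2 scale. EIF3E and EIF4B were lower in trial 2 in each gel, by 0.51 to 0.85 and by 0.60 to 1.1. A difference of this kind between gels rests on 1 library each and was not tested.

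**Figure D3:**
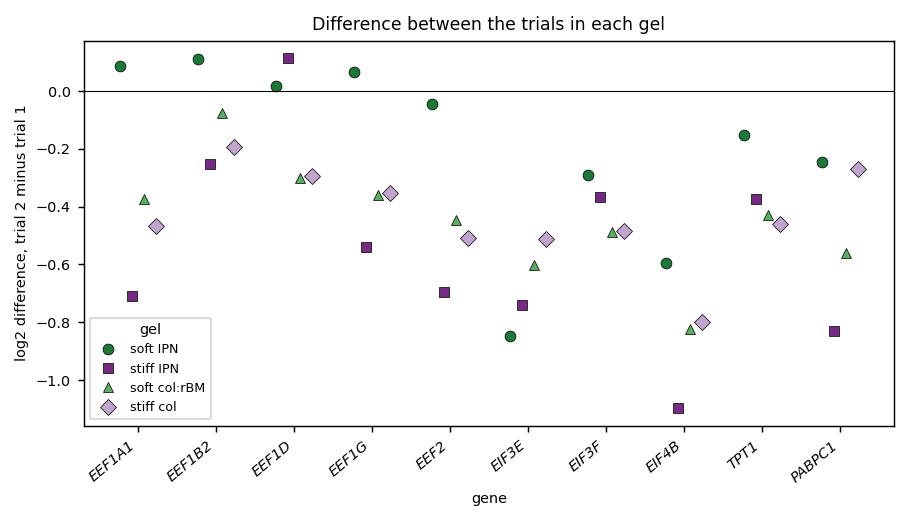
log2 difference of trial 2 minus trial 1 (y axis) for each of the 10 genes in each gel, where every point compares 1 library with 1 library. Soft IPN points of the eEF1 genes lie above 0, and those of EIF3E and EIF4B lie below 0 in all 4 gels.

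Genes around the 10 in the translation machinery were counted from fixed lists. Of 79 cytosolic ribosomal protein genes, 77 were tested, and 74 of these were lower in stiff than in soft IPNs, with a median log2 fold change of -0.69. None passed without the block and 33 passed with it, a count that fell to 0 without the second soft IPN library and lay between 4 and 40 without any other. RPS2 (-1.03, adjusted p with the block 0.0306, 0.0184 to 0.999 over the alternatives), RPL10 (-0.98, 0.0348, 0.0242 to 0.999) and RPL8 (-0.95, 0.0458, 0.037 to 0.999) had the largest differences among them. The share of these genes in all normalized counts was 16.4% and 14.7% with soft IPNs, 12.0% and 10.4% with stiff IPNs, 14.7% and 12.4% with soft col:rBM and 15.0% and 12.2% with stiff col. The ribosomal protein genes showed a difference of similar size to that of the 10 factors, in the same libraries.

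Another 7 genes with TOP mRNAs were all lower in stiff IPNs, with a median of -0.54. EEF1A2 among them had few reads, at 28 and 12 normalized counts with soft and 3 and 8 with stiff IPNs. EEF1A2 and an eIF3 subunit of these 7 are counted again below, with the other elongation and release factors and the other eIF3 subunits. VIM, which encodes vimentin, stood at 61638 and 30868 normalized counts with soft IPNs, 22798 and 9804 with stiff IPNs, 58049 and 18444 with soft col:rBM and 46195 and 18460 with stiff col. Its stiff IPN library was the lowest of each trial. VIM passed with the block (log2 fold change -1.55, adjusted p = 0.0131, 0.00607 to 0.999 over the alternatives), as it did in stiff col against stiff IPN (0.97, adjusted p = 0.0394, 0.0221 to 1.0 over the alternatives). GNB2L1, which encodes the ribosomal scaffold RACK1, stood at 84642 and 85677 normalized counts with soft and 50287 and 34472 with stiff IPNs. It passed with the block as well (-1.03, adjusted p = 0.0317, 0.0113 to 0.999 over the alternatives). Both calls were lost without the second soft IPN library.

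Other parts of the translation machinery had medians closer to that of all genes, although that of the other eIF3 subunits still lay below the quartiles of all genes. Of 10 other eIF3 subunits tested 9 were lower in stiff IPNs, with a median of -0.44, and none passed. Other initiation factors had 12 of 22 lower, with a median of -0.05 and none passing. EIF3C and EIF4A1 were listed at 0 to 1 normalized counts and were not tested. The 7 other elongation and release factors had 4 lower and a median of -0.28, and the 6 poly(A) binding proteins and partners had 2 lower and a median of 0.26. Of these, PABPC4, a paralog of PABPC1, passed with the block (log2 fold change -0.62, adjusted p = 0.0499, 0.0185 to 0.999 over the alternatives). Genes that control TOP mRNAs or mTORC1 had 10 of 18 lower and a median of -0.07, and none passed. Among them LARP1 stood at 6776 and 7944 normalized counts with soft and 5882 and 5673 with stiff IPNs, and MTOR 970 and 1235 against 1095 and 1266. In stiff col against stiff IPN, EIF5B, which joins the ribosomal subunits, passed with the block in the opposite direction to the 10 genes (-0.71, adjusted p = 0.0355, 0.0146 to 1.0 over the alternatives).

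**Figure D4:**
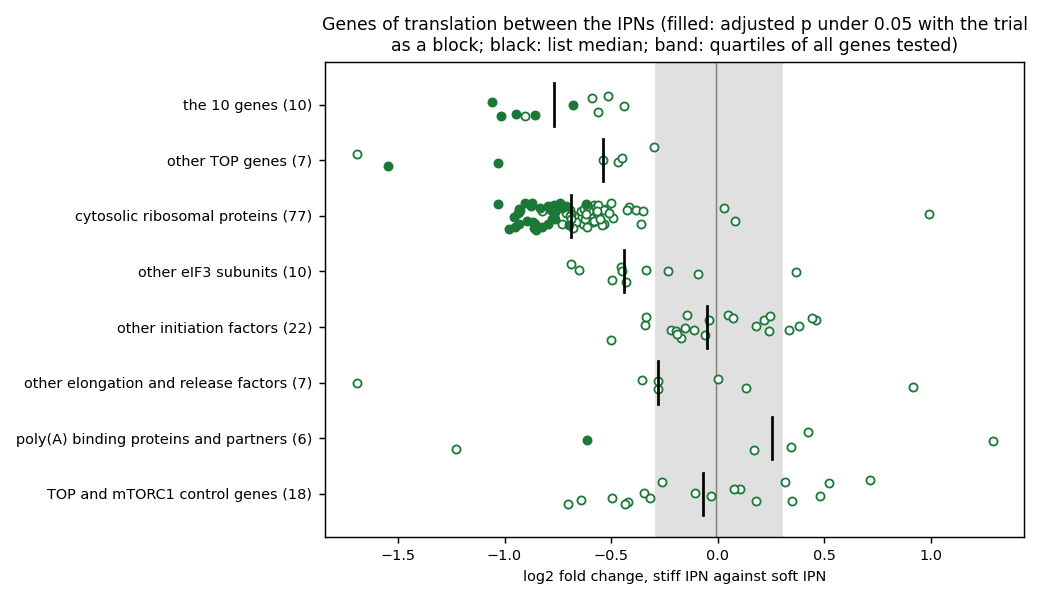
log2 fold change of stiff against soft IPN (x axis) for each gene of the 10 factors and of 7 lists of translation genes, with the number tested in parentheses, a black line at the median of each list, filled points for genes that passed with the trial as a block, and a grey band between the quartiles of all genes tested (-0.29 to 0.30). The 10 factors, the other TOP genes and the ribosomal proteins have medians of -0.77, -0.54 and -0.69, below the band, as do the other eIF3 subunits at -0.44, and the other 4 lists have medians inside it.

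In the contrast between trials, 1926 of all 13369 genes tested (14.4%) were called lower and 1693 higher. Ribosomal protein genes had 74 of 77 lower in trial 2, with a median of -0.35 and 34 called lower, and the 7 other TOP genes were all lower with 3 called. The other eIF3 subunits had a median of -0.32, with 4 of 10 called lower and 2 higher. Other initiation factors had a median of 0.12, with 3 of 22 called lower and 4 higher. The largest change among these was that of EIF4A2, a form of the helicase that EIF4B assists, at -1.496 ± 0.196 SE (adjusted p = 0.00354). EIF4A2 had 12334, 6944, 11393 and 11438 normalized counts in trial 1 and 3095, 4321, 3530 and 3731 in trial 2, given for the IPNs (soft, then stiff) and then for the collagen gels (soft, then stiff). The trials did not overlap for EIF4A2, and stiff IPN was its lowest gel in trial 1 and its highest in trial 2.

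The 10 genes varied together over the 8 libraries. The correlation of each with the mean of the other 9 on the log2 scale was highest for TPT1 (r = 0.987) and lowest for EIF3E (r = 0.776) and EEF1D (r = 0.797), over points that share libraries and scaling factors. The genes outside the 10 whose log2 values followed their mean most closely were RPL6 (r = 0.998), LINC00460 (0.995), RPLP0 (0.994), SCNN1G (0.993) and RPL14 (0.992), as a description over 8 libraries. Of the 20 genes with the highest r, 11 were ribosomal protein genes, and of the first 100 there were 34, whereas ribosomal protein genes make up 0.576% of the genes tested. GNB2L1 ranked 65 (r = 0.970), VIM 108 (r = 0.961) and NAP1L1 287 (r = 0.932), and HNRNPA1 and IPO7 were further down at 0.688 and 0.595.

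Paralogs and processed copies could take reads from several of the genes. In hg19, 115 pseudogenes of the 10 genes are annotated, 49 of them for EEF1A1, 15 for TPT1 and 13 for PABPC1. The table lists EEF1DP3, at 0 to 2 normalized counts, and PABPC1P2, at 2 to 12. EEF1A2, the muscle and neuronal form of eEF1A, had 3 to 28 normalized counts, PABPC3 102 to 453 and PABPC4 2563 to 5299. PABPC3 and PABPC1 share closely similar sequence, so their division of reads is uncertain.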

How the data were processed

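RNA-seq was measured in 8 MCF10A libraries, 2 per gel. The authors aligned trimmed reads to hg19 and tallied them by gene with HTSeq, keeping only confident alignments to 1 place in the genome. The submitters' processing notes name Trim Galore 0.3.3, TopHat2 2.0.13, SAMtools 1.1, HTSeq, DESeq2 and R 3.2.0, whereas the paper's methods name Bowtie2 as the aligner. The gene annotation and the strand setting are not given in the sources used here, and the kit does not mark strand, so reads of overlapping genes cannot be told apart. The deposited values are a signal, read counts that the authors divided by 1 factor per library and rounded. These factors, and with them the reads per library, were estimated from the deposited values themselves. Unscaled read counts were not used here.

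A gene was tested if it reached a normalized count of 10 in 2 or more libraries. The scale was log2(value + 1), and fold changes are on this scale. The model was limma's (version 3.58.1, under R 4.3.3 with statmod 1.5.0), with a mean for each gel, a trend of variance on mean and robust moderation. Benjamini-Hochberg adjustment ran over all 13369 genes, at a threshold of 0.05. The trial contrast was taken from the fit with a trial term. Blocking by trial was an alternative. The replicate numbers were taken to pair the libraries across gels, as the paper describes 2 independent trials. Neither the paper nor the library names state that libraries of 1 number share a trial. The differences between replicates 2 and 1 correlated in each of the 6 pairs of gels (r between 0.278 and 0.819). The lowest r, 0.278, was that of soft with stiff IPNs, the comparison in which genes of the 10 passed with the block and all libraries. The highest was that of the 2 collagen gels. Other alternatives were median-of-ratios factors with and without the TOP genes, upper quartile and equal totals, pseudocounts of 0.5 and 5, no filter or 10 in each library, no trend or robust moderation, a correction for length and GC content (known for 97.2% of genes tested), the compared gels alone, and leaving out each library, where a gel left with 1 library is assumed to vary like the others. Equal totals, alone or with the block, and the block without each library were added after seeing the data. The fits were tested on simulated data.

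Positions come from GENCODE 44 on hg19 (canonical transcripts), found for 90.7% of the symbols, and 28 symbols had been turned into dates. Start windows come from RefSeq. Python 3.11.15, numpy 2.4.6, pandas 2.3.3, scipy 1.17.1 and matplotlib 3.10.9 were used. The 10 genes and the gene lists were chosen with earlier results of these data known, so that the lists are no independent evidence. Genes named were the 10, at most the 3 called genes with the largest change per list and comparison, pseudogenes, 3 paralogs and the 5 genes closest in pattern. LARP1, MTOR and CD68, the untested genes listed at or near 0, and the further TOP genes in the pattern ranking, were named after their values were seen.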

Additional observations from a re-analysis of the deposited data

How the results depend on the processing

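Between the IPNs, all 10 genes stayed lower under each of the 30 alternatives. With the trial as a block the number that passed was 5 (2.13% of all genes were called lower), and with the block it was 7 (3.32%) after correction for length and GC content, 4 (1.26%) with equal totals, and 0 to 7 (0.0% to 11.4%) without 1 library. With all libraries, the block changed no call in stiff col against stiff IPN or for the difference of the stiffness effects. The median of that difference without 1 library and with no block was 0.368 to 0.904. In both other comparisons between gels the block and the pairing of trials changed no call either. Between the trials the number that passed was 3 without trend and robust moderation (10.6% of all genes called lower), 2 with equal totals (9.31%) and 2 to 8 without 1 library (5.28% to 22.7%).

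Single genes that had not passed changed sign (log2 values). In stiff col against soft col:rBM, TPT1 reached 0.011 with equal totals, with and without the block, and EEF1B2 and EIF3E reached -0.033 and -0.064 after correction for length and GC content, with and without the block. With the block and 1 library left out, TPT1 there was 0.011 and 0.03, EEF1B2 -0.02 and EIF3E -0.037. Between the trials EEF1B2 and EEF1D reached 0.028 and 0.015 with equal totals. With the block and without the second soft IPN library, EEF1A1 and EEF2 in soft col:rBM against soft IPN were 0.025 and 0.016, and without the first stiff IPN library EEF1D in stiff col against stiff IPN was -0.013.

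Without the block, leaving out 1 library gave these ranges. In stiff col against soft col:rBM they were -0.331 to 0.135 for EEF1A1, -0.057 to 0.138 for EEF1B2, -0.348 to 0.012 for EEF1G, -0.384 to 0.123 for EEF2, -0.23 to 0.373 for EIF3E, -0.396 to 0.092 for EIF3F, -0.547 to 0.275 for EIF4B and -0.27 to 0.189 for TPT1. In soft col:rBM against soft IPN they were -0.663 to 0.186 for EIF3E, -0.378 to 0.11 for EIF3F, -0.709 to 0.113 for EIF4B, -0.423 to 0.007 for TPT1 and -0.523 to 0.037 for PABPC1. In stiff col against stiff IPN they were -0.007 to 0.288 for EEF1D, -0.097 to 0.644 for EIF3E, -0.034 to 1.063 for EIF4B and -0.149 to 0.682 for PABPC1. The cause was not tested. Precision is limited by 2 libraries per gel rather than by depth.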
